A study of Mus musculus with 21 samples.

Results

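The genes described here are 10 digestive enzyme genes of the exocrine pancreas, measured in colon RNA of germ-free (GF) mice. They are Prss2, Ctrb1, Cela1, Cela2a, Cela3b, Cpa1, Cpb1, Pnlip, Pnliprp1 and Clps. They were chosen by their measured values on these arrays, because they stood out in single colon samples, and each is followed by its brightest probe. The 10 genes are 10 of 23771 genes with a symbol on the day 7 design, where they have 11 of 55681 probes, and 10 of 26765 on the day 0 design, where they have 13 of 56605 probes. All 10 passed the detection filter at both days. At day 7 Prss2 and Cela3b passed it only through the arrays labelled GF Card9-/-, and at day 0 the same held for Pnlip, so no count over the genes that passed is evidence of a difference.

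Acinar cells make up most of the pancreas and secrete enzymes that digest protein, fat and starch in the gut lumen. Proteases leave the cell as inactive zymogens: trypsin is cut into its active form in the duodenum and then activates chymotrypsin, elastases and carboxypeptidases. Acinar cells devote a very large part of their messenger RNA to these enzymes, and the colon epithelium is not known as a source of most of them.

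The data are 21 Agilent arrays in 1 color, each read from the total RNA of 1 colon sample of a male C57BL/6J mouse, GF WT or GF Card9-/-. Card9 encodes an adaptor protein of innate immune receptors in myeloid cells. At day 7, after 7 days of 2% dextran sulfate sodium (DSS, which injures the colon epithelium) in the drinking water, 4 arrays are labelled GF Card9-/- (replicates 2, 2.1, 4 and 6) and 4 are labelled GF WT (replicates 1, 4, 5 and 6). The day 0 set, taken before DSS, has 7 arrays with the label GF Card9-/- (replicates 1 to 7) and 6 with the label GF WT (replicates 1 to 6). Both genotypes were germ-free and untreated apart from DSS, and the age of the mice on the arrays is not given in the sources used here. The question of the comparison was what the loss of Card9 changes in the colon without a microbiota. The days use different array designs and were analyzed apart, so day 7 cannot be set against day 0. The labels do not say how the samples were dissected, and nothing says which replicates come from separate cages or litters.

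Card9 itself goes against the labels. Its signal was well above background on all 4 arrays labelled GF Card9-/- at day 7, at 7.93 to 8.57 (log2 units throughout), and not well above background on 3 arrays labelled GF WT, at 2.38 to 2.41. The array labelled GF WT replicate 1 lay with the other label, at 7.85. At day 0 the 7 arrays labelled GF Card9-/- lay between 8.71 and 9.24 and none of the 6 labelled GF WT was well above background, a difference of at least 21.5-fold (limma adjusted p = 2.92e-13). Whether the probe lies in the deleted part of the gene is not given in the sources used here. Groups are therefore named by their labels, and every direction below is that of the labels, arrays labelled GF Card9-/- minus arrays labelled GF WT.

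The share of spots well above background was 42.2% to 57.1% at day 7 and 54.5% to 64.9% at day 0, and no spot was saturated. All 11 colon epithelium markers were well above background on each of the 21 arrays. In bulk tissue, fewer cells of a type cannot be told apart from less RNA per cell.

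The promoters of these genes are shown because acinar cells use a shared control complex, PTF1, which binds an E-box and a TC-box close together. RefSeq (GRCm38.p6) windows from 250 bases before to 50 bases after the start were at hand for 9 of the 10 genes; Clps has no entry. They were searched on both strands for the E-box CACCTG and the TC-box TGGGAAA. The letters of these motifs do not overlap. Of the 9 windows, 5 held the E-box, 4 the TC-box and 2, Prss2 and Cela2a, held both. Of all 32851 windows, 20.2% held the E-box, 8.06% the TC-box and 1.61% both. The windows of Prss2 (chr6:41521526-41521825, plus strand), Cela2a (chr4:141825956-141826255, minus strand), Ctrb1 (chr8:111690961-111691260, minus strand) and Cela1 (chr15:100687871-100688170, minus strand) run 5′ to 3′ along the gene, with exact matches on either strand in capitals.
Prss2: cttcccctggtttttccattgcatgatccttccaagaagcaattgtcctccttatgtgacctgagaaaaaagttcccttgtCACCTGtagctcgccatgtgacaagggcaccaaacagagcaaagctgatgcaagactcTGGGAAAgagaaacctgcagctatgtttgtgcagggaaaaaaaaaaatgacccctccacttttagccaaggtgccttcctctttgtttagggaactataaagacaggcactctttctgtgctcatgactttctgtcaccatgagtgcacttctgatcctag
Cela2a: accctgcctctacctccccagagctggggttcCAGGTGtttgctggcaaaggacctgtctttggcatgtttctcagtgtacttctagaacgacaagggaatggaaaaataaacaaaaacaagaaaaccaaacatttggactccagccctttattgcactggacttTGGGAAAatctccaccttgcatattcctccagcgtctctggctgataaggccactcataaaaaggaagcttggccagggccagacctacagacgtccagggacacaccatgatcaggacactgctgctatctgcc
Ctrb1: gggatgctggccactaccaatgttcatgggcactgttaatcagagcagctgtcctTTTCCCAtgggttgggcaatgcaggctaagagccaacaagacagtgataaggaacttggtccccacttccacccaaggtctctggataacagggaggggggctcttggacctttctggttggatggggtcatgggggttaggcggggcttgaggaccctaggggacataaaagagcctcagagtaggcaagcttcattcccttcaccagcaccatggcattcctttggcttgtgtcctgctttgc
Cela1: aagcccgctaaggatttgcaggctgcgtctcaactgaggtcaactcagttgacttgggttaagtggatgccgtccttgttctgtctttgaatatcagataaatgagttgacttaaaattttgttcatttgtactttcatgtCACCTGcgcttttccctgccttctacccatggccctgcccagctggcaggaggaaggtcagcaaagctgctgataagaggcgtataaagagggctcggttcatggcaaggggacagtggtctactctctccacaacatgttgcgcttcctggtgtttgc
In Prss2 the E-box begins 169 bases and the TC-box 111 bases before the start. In Cela2a they begin 218 and 85 bases before it. Ctrb1 has a TC-box on the other strand, 195 bases before the start, and no exact E-box, and Cela1, whose signal departs most from that of the other genes, has an E-box 109 bases before the start and no exact TC-box. The windows of Pnlip and Pnliprp1 hold neither sequence. These matches are descriptions of the letters in the window, not binding sites.

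What the arrays read is a 60-base probe for each gene, and 7 of the 10 genes are read by the same probe on both designs. Cela1, Cela2a and Cela3b are read by different probes on the designs. The probes of Prss2 (chr6:41473937-41473996), Ctrb1 (chr8:114210454-114210513) and the pair for Cela1 (chr15:100515014-100515073 at day 7 and chr15:100504871-100504930 at day 0), all on NCBI37, are given because the values below rest on them.
Prss2: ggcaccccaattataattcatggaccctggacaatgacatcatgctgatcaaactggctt
Ctrb1: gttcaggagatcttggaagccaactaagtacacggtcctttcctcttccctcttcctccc
Cela1, day 7: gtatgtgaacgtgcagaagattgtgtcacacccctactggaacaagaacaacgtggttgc
Cela1, day 0: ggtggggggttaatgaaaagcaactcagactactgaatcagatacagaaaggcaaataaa
Trypsinogens, elastases and amylases are families of closely similar genes, and whether a probe also takes up transcripts of a relative was not tested.

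At day 7 the enzyme signal was carried by 2 of the 8 arrays, those labelled GF Card9-/- replicates 6 and 2.1. Among the 10 genes, Cpa1, Cpb1, Ctrb1 and Clps left a weak trace on replicate 4. Cela2a and Pnlip lay below some arrays labelled GF WT there. All 10 genes were well above background on replicates 6 and 2.1, 7 on replicate 4, 5 on replicate 2, and 2, 5, 5 and 5 on the arrays labelled GF WT replicates 1, 4, 5 and 6. At least 8-fold above the median of the 8 arrays were 9 of the 10 genes on replicate 6, 8 on replicate 2.1 and none on the other 6 arrays. Of all 44643 tested probes, 0.674% were that far above their median on replicate 6, 0.82% on replicate 2.1 and 0.195% on replicate 4. The 10 probes took 0.472% of the summed processed signal of replicate 6 and 0.0318% of that of replicate 2.1, against 0.00422% to 0.0171% on the other 6 arrays. On each of these 6 arrays Cela1 gave the largest part, a processed signal of 3638 to 16589, followed by Clps with 1084 to 3403.

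**Figure D1:**
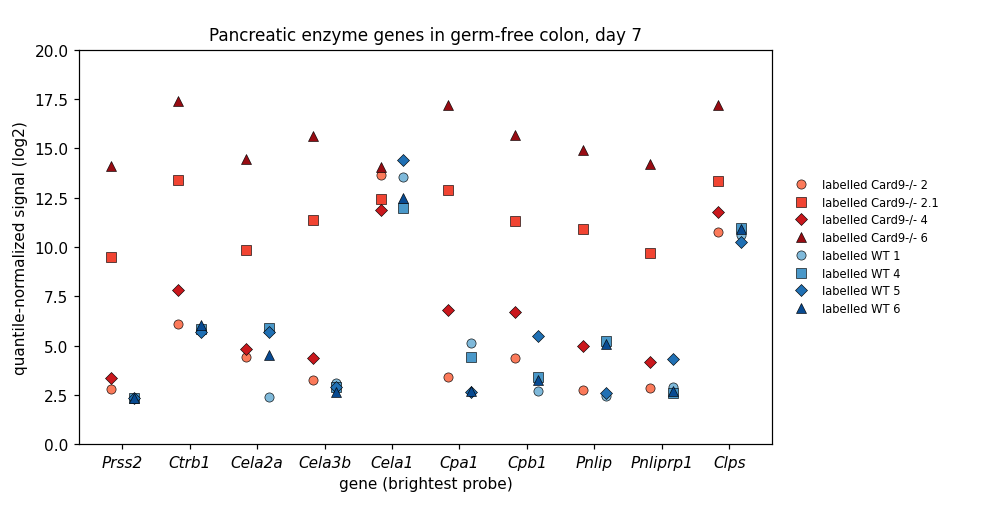
Quantile-normalized signal (log2) of the brightest probe of each gene on the 8 day 7 arrays, in red for the label GF Card9-/- and in blue for GF WT, with 1 symbol for each array. For every gene but Cela1, replicate 6 labelled GF Card9-/- is highest and replicate 2.1 next.

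Among the endopeptidases, Prss2, an anionic trypsinogen, measured 2.79, 9.51, 3.34 and 14.11 on replicates 2, 2.1, 4 and 6 of the label GF Card9-/-, and 2.34 to 2.35 on the 4 labelled GF WT. It was well above background on replicates 2.1 and 6 alone, and replicate 6 was at least 970-fold above the arrays labelled GF WT. This bound sets the dim arrays at the dimmest probe well above background on each. Ctrb1, chymotrypsinogen B, measured 6.11, 13.39, 7.80 and 17.40 in the same order, and 5.74, 5.85, 5.67 and 6.07 on the arrays labelled GF WT replicates 1, 4, 5 and 6. Here even the lowest of the arrays labelled GF Card9-/- lay above all 4 of the other label, at 6.11 against 6.07.

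The elastases split. Cela2a measured 4.43, 9.82, 4.83 and 14.46 on the arrays labelled GF Card9-/- and 2.39, 5.89, 5.67 and 4.52 on those labelled GF WT, and the groups overlap. Cela3b followed Prss2, with 15.63 on replicate 6, 11.36 on replicate 2.1, 4.39 and 3.24 on the other pair and at most 3.08 on the arrays labelled GF WT, where it was never well above background. Cela1 stood apart: it measured 13.63, 12.45, 11.86 and 14.07 against 13.56, 11.98, 14.43 and 12.47, was well above background everywhere and was highest on the array labelled GF WT replicate 5.

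The carboxypeptidases, which trim amino acids from the end of peptides, gave a wide span. Cpa1 measured 3.39, 12.87, 6.81 and 17.17 on the arrays labelled GF Card9-/- and 5.15, 4.40, 2.66 and 2.69 on those labelled GF WT, none of which was well above background. Replicate 6 was at least 6243-fold and replicate 2.1 at least 318-fold above the latter. Cpb1 reached 15.68 and 11.30 on these arrays, 6.69 on replicate 4 and at most 5.48 elsewhere.

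Of the genes for fat digestion, Pnlip, pancreatic triglyceride lipase, measured 2.75, 10.92, 4.99 and 14.92 on the arrays labelled GF Card9-/- and 2.42, 5.22, 2.62 and 5.08 on those labelled GF WT. Pnliprp1, a lipase-related protein, reached 14.18 and 9.68 on replicates 6 and 2.1 and was not well above background on any other array. Clps, colipase, the cofactor that anchors the lipase on fat droplets, had signal everywhere: 10.78, 13.36, 11.78 and 17.17 against 10.61, 10.95, 10.27 and 10.90. Replicate 6 was 89.9-fold above the arrays labelled GF WT for Clps and at least 1030-fold above them for Pnlip, which was well above background on 2 of those 4 arrays.

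The arrays kept the same order from gene to gene. Replicate 6 was highest and replicate 2.1 next in 9 of the 10 genes. The step from replicate 2.1 to replicate 6 was 4.28 ± 0.29 (mean ± SD over the 9 genes other than Cela1), between 3.81 for Clps and 4.64 for Cela2a, and 1.62 for Cela1. Over all tested probes the same step had a median of -0.03 and an SD of 0.91. Prss2, Cela3b and Pnliprp1 were not well above background on replicate 4, so their step from there to replicate 2.1 is not measured on both sides. Among the others it was 6.07 for Cpa1, 5.93 for Pnlip, 5.59 for Ctrb1, 4.99 for Cela2a, 1.59 for Clps and 0.58 for Cela1, and that of Cpb1 lay between those of Cela2a and Clps. The genes share the arrays and were chosen together, so this is a description of 3 samples. The arrays fall into separate clusters, and no correlation across them is given.

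**Figure D2:**
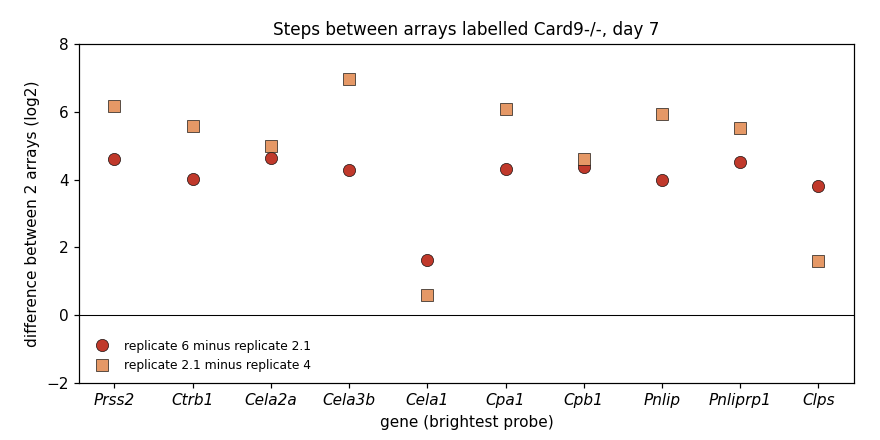
Difference in log2 signal between 2 arrays labelled GF Card9-/- at day 7 for each gene, circles for replicate 6 minus 2.1 and squares for replicate 2.1 minus 4. Apart from Cela1 at 1.62, the circles lie between 3.81 and 4.64. The squares of Prss2, Cela3b and Pnliprp1 set replicate 2.1 against readings not well above background.

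Replicates 2 and 2.1 share a leading number, and the sources used here do not say whether they come from 1 animal. They are counted as separate samples, and n, SD and SE at day 7 rest on that. Of the 5 genes well above background on both, Ctrb1 was higher on replicate 2.1 by 7.28, Cpb1 by 6.91, Cela2a by 5.39 and Clps by 2.58, while Cela1 differed by -1.18 (2.1 minus 2). The other 5 genes were well above background on replicate 2.1 alone of the pair. Their SD of the log2 difference over all tested probes was 0.852, near the median of 0.907 over the other pairs of the same label.

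At day 0 a single array of 13 carried the signal, that labelled GF Card9-/- replicate 7. All 10 genes were well above background and highest there, and 9 of 10 were at least 8-fold above the median of the day, against 0.249% of the 47410 tested probes. No gene passed that mark on any of the other 12 arrays, where 4 to 7 of the genes were well above background. The 10 probes took 1.13% of the summed processed signal of replicate 7 and 0.0132% to 0.0492% of that of the others. On each of the others Cela1 again gave the largest part, followed by Clps.

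**Figure D3:**
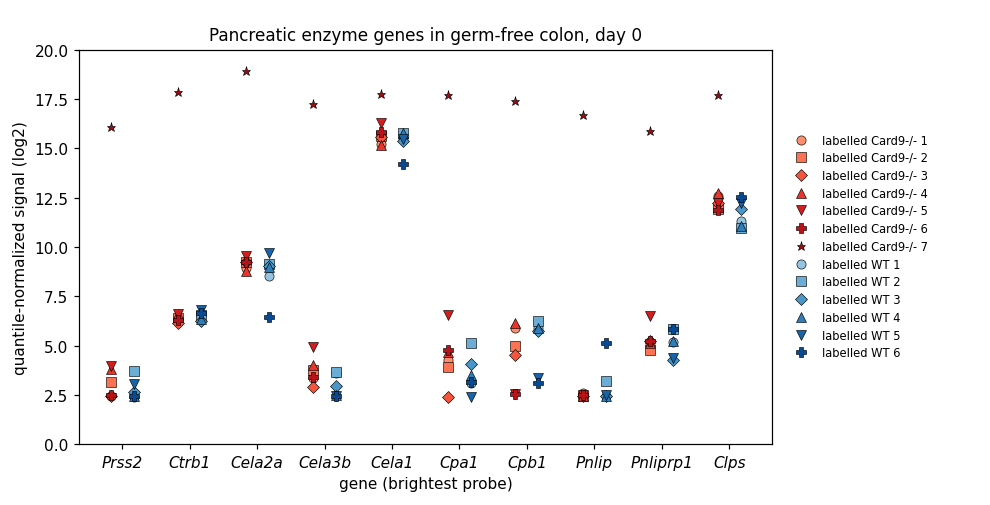
Quantile-normalized signal (log2) of the brightest probe of each gene on the 13 day 0 arrays, in red for the label GF Card9-/- and in blue for GF WT, with 1 symbol for each array. The star, replicate 7 labelled GF Card9-/-, is the highest point for every gene, between 15.89 and 18.90.

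Prss2 had a lowest, median and highest value of 2.44, 3.16 and 16.10 on the 7 arrays labelled GF Card9-/- and of 2.41, 2.56 and 3.70 on the 6 labelled GF WT. Only replicate 7 was well above background, at least 3167-fold above the arrays labelled GF WT. For Ctrb1 the same values were 6.13, 6.42 and 17.85 against 6.25, 6.52 and 6.82, and without replicate 7 the arrays of the label lay within 6.13 to 6.61. The elastase Cela3b went from 2.92 over 3.78 to 17.27, against 2.45, 2.71 and 3.65.

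Cela2a had a baseline on this design, with 8.77, 9.23 and 18.90 against 6.45, 9.00 and 9.67, and its lowest array was that labelled GF WT replicate 6. Cela1 was again bright on every array, at 15.18, 15.62 and 17.74 against 14.20, 15.50 and 15.79. Its highest array was the one that carried the other enzymes.

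Cpa1 spanned 2.39, 4.67 and 17.71 against 2.38, 3.32 and 5.14, and Cpb1 spanned 2.54, 4.97 and 17.39 against 3.13, 5.81 and 6.24. Both carboxypeptidases were well above background on some other arrays of each label, and the median of the label GF Card9-/- was the higher one for Cpa1 and the lower one for Cpb1. By its brightest probe Pnlip was well above background only on replicate 7, at 16.71, and on the other arrays lay between 2.43 and 5.11. A dimmer probe of Pnlip, not tested, was well above background on 2 arrays and also highest on replicate 7. Pnliprp1 reached 15.89 there against 4.29 to 6.48 elsewhere, and Clps 17.71 against 10.95 to 12.73.

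At day 7, 9 of the 10 genes were at least 1 log2 unit higher in the arrays labelled GF Card9-/-, against 2.58% of all tested probes, and Cela1 differed by -0.11 ± 0.68 (SE). Cpa1 differed by 6.34 ± 2.82, with means ± SD of 10.06 ± 6.15 (n = 4) and 3.73 ± 1.25 (n = 4), and Prss2 by 5.09 ± 2.43. As neither was well above background on an array labelled GF WT, these are bounded as at least 45.2-fold for Cpa1 and at least 9.50-fold for Prss2. The smallest of the 9 differences was that of Clps, 2.59 ± 1.27. These values chose the genes and are given without a test. The median difference of the 10 genes was 4.84, against 0.00 over all tested probes. In 3 genes, Prss2, Cela3b and Ctrb1, each array labelled GF Card9-/- lay above each labelled GF WT, as did 1.08% of all tested probes, and nothing is read from this count. For Prss2 and Cela3b only replicates 2.1 and 6 were well above background, so the order among the remaining readings has no meaning.

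No probe passed an adjusted p of 0.05 in limma at day 7, 0% of those tested and none of the 10 genes, while 1511 probes had an unadjusted p under 0.05. By size of the difference, the 10 genes nevertheless held ranks 5 to 30976 of 44643, with a median rank of 10. Among the 100 probes of largest difference, 27 belonged to the 10 genes or to the other acinar genes described below. The median difference was 6.54 without replicate 2 and 4.17 without replicate 2.1. Without replicate 6 it was 2.65, and 13 of the 100 largest belonged to them. Without both replicates 2.1 and 6 it was 0.65, none of the 10 genes was among the 100 largest, and the acinar genes still there were Amy2a5 and Cela3a. Within the slide shared by replicate 2.1 and the array labelled GF WT replicate 4 the median difference was 7.12, and within the slide shared by replicate 2 and the array labelled GF WT replicate 6 it was 0.30. Replicate 6 lay on a slide with no array of the other label.

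At day 0, again 9 of the 10 genes were at least 1 log2 unit higher in the arrays labelled GF Card9-/-, against 0.323% of all tested probes, and none was higher on every array, against 0.316%. Of all tested probes 0.0253%, 12 in number, passed an adjusted p of 0.05 in limma, and none of the 10 genes did. Cpa1 differed by 2.76 ± 2.04 (SE), Cela3b by 2.74 ± 2.02 and Cela1 by 0.57 ± 0.40. Each of the SEs of Cpa1 and Cela3b rests on replicate 7: the SD over the 7 arrays labelled GF Card9-/- was 5.17 for Cpa1, against 0.95 over the 6 labelled GF WT. The median difference of the 10 genes was 1.61, and 7 of them were among the 100 probes of largest difference. Without replicate 7 it was 0.27, the differences ran from -0.59 for Cpb1 to 0.86 for Cpa1, and none was among the 100 largest. Within the slide of replicate 7, which also holds the array labelled GF WT replicate 1, the median difference was 11.4, and within the other 3 slides it was -0.13, 0.26 and 0.39.

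**Figure D4:**
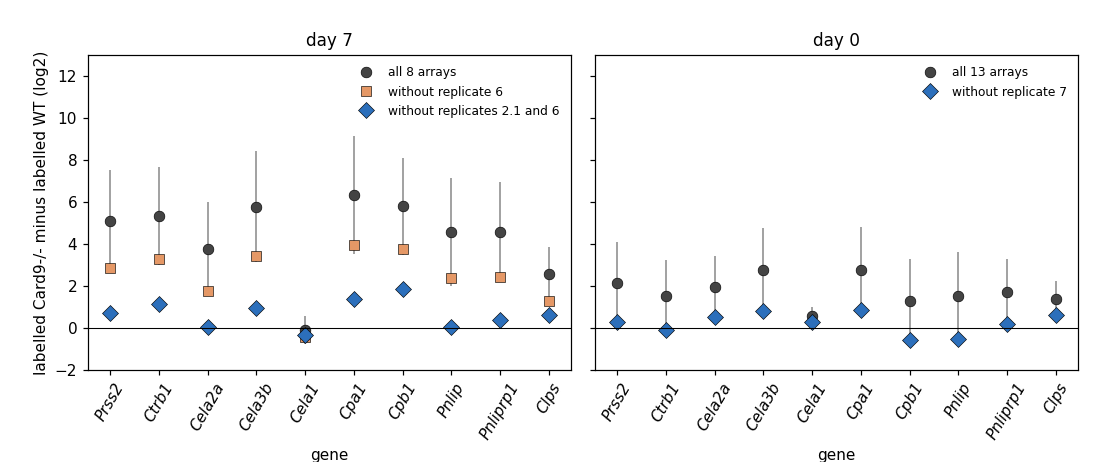
Log2 difference of each gene, arrays labelled GF Card9-/- minus arrays labelled GF WT, at day 7 (left) and day 0 (right), with all arrays (circles, bars show the SE) and without the arrays that carry the signal (squares and diamonds). The median over the 10 genes goes from 4.84 to 2.65 and 0.65 at day 7 and from 1.61 to 0.27 at day 0.

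Other secretory genes of the acinar cell were listed beside the 10, and 20 of 23 were measured at day 7 and 22 of 23 at day 0. On replicate 6 at day 7, 16 of the 20 were at least 8-fold above the median of the day and all 20 were well above background. The widest ranges were those of the pancreatic amylase Amy2a5 (17.99 on replicate 6, 14.76 on replicate 2.1, 9.79 on replicate 4 and at most 6.01 elsewhere), the trypsinogens Try5 and Try4 (17.13 and 16.93 on replicate 6), the elastase Cela3a (16.99) and the trypsinogen Prss1 (13.24). Replicate 4, on which none of the 10 enzyme genes reached 8-fold, had 3 of these genes past it, Amy2a5, Cela3a and Try4. All 20 were higher on replicate 6 than on replicate 2.1, by a median of 4.05. The 4 genes short of 8-fold were the phospholipase gene Pla2g1b, which was well above background on replicate 6 alone, and Spink1, Sycn and Klk1. The latter were well above background on all 8 arrays and each spanned 0.89 or less. Of the 19 tested, 18 were higher under the label GF Card9-/-, against 50.4% of all tested probes, with a median of 2.97, and none was called. Prss1, Try4, Serpini2 and Cela3a passed the detection filter only through that label, so nothing is read from this count and median.

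On replicate 7 at day 0, 17 of the 22 were at least 8-fold above the median of the day. Amy2a5 read 18.52 there and at most 6.94 elsewhere, Try5 17.78, Cela3a 17.54 and the chymotrypsin Ctrc 17.93. Reg1, a secreted lectin also made by regenerating gut epithelium, was raised on more than this array: 14.58 on replicate 7, 6.77 on the array labelled GF Card9-/- replicate 3 and 7.32 on that labelled GF WT replicate 6. Spink1, Sycn and Klk1 were again well above background on all arrays. So was Prss3, which was not raised on replicate 7, at 6.06 within 5.64 to 6.44 over the day. None of the 18 tested was called, and their median difference was 1.17, or 0.06 without replicate 7. Try5 and Reg2 passed the detection filter only through the label GF Card9-/-.

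Of 8 genes for acinar transcription and secretion control, the only one past 8-fold at day 7 was Rbpjl, the acinar subunit of PTF1, with 8.89 on replicate 6 and 2.47 to 5.25 elsewhere. At day 0 Rbpjl read 9.98 on replicate 7 and 2.33 to 4.57 elsewhere. Ptf1a, the DNA-binding subunit, read 6.10 on replicate 7 but 7.88 on the array labelled GF Card9-/- replicate 3 and 6.12 on that labelled GF WT replicate 6, neither of which carried the enzymes. Bhlha15, a factor of secretory cells, was highest on replicate 6 at day 7 (8.94) and on replicate 7 at day 0 (10.51), and was well above background on most arrays. Cckar, the cholecystokinin receptor, was highest on other arrays. Nr5a2 and Rab3d spanned 0.69 or less at either day. The median difference of the list was 0.88 at day 7 and 0.10 at day 0, and no gene of it was called. Gata4 at both days and Ptf1a at day 7 passed the detection filter only through the label GF Card9-/-, so nothing is read from these medians.

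The 5 genes outside all lists whose profile over the 8 day 7 arrays lay nearest to the mean profile of the 10 genes, by root mean square difference of median-centered values, were Pdia2 (0.397), Tff2 (0.612), Gm5771 (0.648), Amy1 (0.731) and Gm10403 (1.62), among 20476 genes with a median of 3.97. Pdia2, a disulfide isomerase of the pancreas, read 13.65 on replicate 6 and 9.33 on replicate 2.1. At day 0, over 13 arrays, they were Pdia2 (0.613), Gm5771 (0.617), Gm10334 (1.13), Amy1 (1.22) and Gm5409 (1.33), among 22840 genes with a median of 2.97. With 1 high array at day 0, likeness there is mostly likeness to replicate 7.

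Markers of the endocrine pancreas and the ducts were measured beside the enzymes. Of 11 islet genes none passed 8-fold on an array that carried the signal. At day 7 the list's summed level was 14.6 to 15.1 under the label GF Card9-/- and 12.4 to 14.6 under GF WT. At day 0 it was 14.6 to 15.1 under both labels. At day 7 Gcg alone read 14.16 to 14.88 and 11.54 to 14.37, so the sum mostly follows this gene. Gcg, Ppy and Sst were well above background on every day 7 array, with or without the enzyme signal. The sum is therefore not a level of islet tissue. Ins1, insulin, was well above background only on replicate 6 at day 7 (5.71, against 2.69 to 4.02) and on replicate 7 at day 0 (5.06, against 2.37 to 3.97). Ins2 read 7.06 on replicate 6 at day 7, within the 5.98 to 7.78 of the other arrays, and at day 0 it read 4.12 on replicate 7 against 2.54 to 3.99 elsewhere, not well above background on any array. G6pc2 passed 8-fold on 2 arrays at day 0, those labelled GF Card9-/- replicate 5 and GF WT replicate 2. The 7 pancreatic duct genes, which the colon epithelium also expresses, were well above background on every array and had a mean of 9.57 to 10.16 at day 7 and 11.86 to 12.51 at day 0.

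Fat and serosal genes were high on some of the arrays with enzyme signal. At day 7, 9 of 10 adipocyte genes and all 6 mesothelium genes were highest on replicate 2.1, not on replicate 6. Cidec, a lipid droplet protein, read 12.94 on replicate 2.1 and 11.25 on replicate 6, against 7.72 to 11.70 on the arrays labelled GF WT, and Wt1 read 7.69 and 6.06, against 2.63 to 6.91. The mean of the mesothelium list was 7.64 on replicate 2.1 but 4.63 on replicate 6, the lowest of the day apart from the 3.57 of the array labelled GF WT replicate 1, and 3 of the 6 genes were well above background on replicate 6. The summed level of the adipocyte list was 14.8 to 16.8 on the arrays labelled GF Card9-/- and 14.2 to 16.2 on those labelled GF WT, and that of mesothelium 8.23 to 11.2 and 8.13 to 9.96. At day 0 replicate 7 had the highest mean of the 6 mesothelium genes (8.61, against 5.52 to 7.97 elsewhere), with Upk3b at 8.38 against 4.06 to 7.84. Its adipocyte mean, 11.46, lay below the 12.92 of the array labelled GF Card9-/- replicate 6. The complement factor Cfd, made by fat, read 14.82 on replicate 7, 17.16 on replicate 6 and 2.26 on replicate 5, where it was not well above background. Summed levels at day 0 were 13.9 to 17.9 against 14.8 to 17.2 for the adipocyte list and 10.1 to 11.9 against 9.21 to 11.2 for mesothelium. The part of such tissue in the enzyme signal was not tested.

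Upper gut markers were mixed at day 7. The mean of the Paneth cell list, with 4 of 6 genes measured, was 10.38 on replicate 2.1 and 9.98 on replicate 6, above the other 6 arrays. This was not particular to these arrays. All arrays labelled GF Card9-/- (9.53 to 10.38) lay above all labelled GF WT (7.68 to 9.20). The 9.53 was that of replicate 2, where none of the enzyme genes passed 8-fold. The mean of the small intestine list was 7.42 on replicate 2.1 and 7.03 on replicate 6, but its summed level was highest on the array labelled GF WT replicate 5 (12.6, against 12.4 and 12.2), and 3 of its 10 genes were highest on replicate 2.1. The mean of the stomach list was also highest on that array labelled GF WT (4.13, against 4.08 and 3.62). Their part in the enzyme signal was not tested. Of the 10 B cell and lymph node genes, 6 were highest on replicate 2 at day 7, and at day 0 Fcer2a was highest on the array labelled GF Card9-/- replicate 6 (9.32, against 7.08 on replicate 7). In the small intestine list 3 of the 9 tested genes were higher under the label GF Card9-/- at day 7, against 50.4% of all tested probes. The median difference of the list was -0.16. Alpi, 1 of these 3, read 10.14 on replicate 2.1 and 8.63 on replicate 6, against 2.55 to 9.05 on the arrays labelled GF WT. The sucrase gene Sis, named after its values were seen at day 7, read 9.64 on replicate 2.1, 9.53 on replicate 4, 9.04 on replicate 6 and 5.35 on replicate 2 at that day, against 3.17 to 7.76 on the arrays labelled GF WT. It differed by 3.23 ± 1.33 (SE; limma adjusted p = 0.913). Most tested genes of the list were lower under the label GF Card9-/-, such as Fabp6 by -0.60 ± 0.13 (SE). Sis read 12.72 on the array labelled GF WT replicate 6 at day 0, 8.22 on that labelled GF Card9-/- replicate 3 and 6.80 on replicate 7. The Paneth cell gene Ang4 was highest on replicate 2.1 (15.20) with 14.63 on replicate 6, and Defa24 at day 0 was highest on replicate 3 (8.85), with 4.66 on replicate 7. Of the stomach list, Muc5ac reached at most 6.01 at day 7, on replicate 2.1, and Gkn1 at most 5.89 at day 0, where replicate 7 read 3.97. Of the liver list, Ahsg was highest on replicate 2.1 (7.19), with 5.16 on replicate 6, and Cyp2e1, which fat also expresses, read 10.92 on replicate 7 within 4.14 to 12.45.

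Colon tissue itself was present in the arrays that carried the signal. The mean of the 11 colon epithelium genes was 15.86 on replicate 6 and 15.96 on replicate 2.1 at day 7, within 15.13 to 15.96 over the 8 arrays, and 16.46 on replicate 7 at day 0. Guca2a, the peptide guanylin, read 18.22 and 18.47 on replicates 6 and 2.1, and Aqp8, a water channel of colonocytes, read 16.31 on replicate 7 but 9.56 on the array labelled GF WT replicate 6. Among smooth muscle genes Myh11 read 13.01 on replicate 6 and 11.11 on replicate 2.1, the lowest of that day, and Des 12.33 on replicate 7 within 10.59 to 14.52. In the duct list the widest range at day 0 was that of Muc1 (9.84 on replicate 7, 6.08 to 10.20 over all). No gene of these lists was called at either day. Outside the acinar lists, the median difference of a list between the labels ran from -0.48 (smooth muscle) to 1.19 (adipocyte) at day 7, and from -0.45 (smooth muscle) to 0.93 (mesothelium) at day 0. Over all tested probes the median was 0.00 and 0.02.

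**Figure D5:**
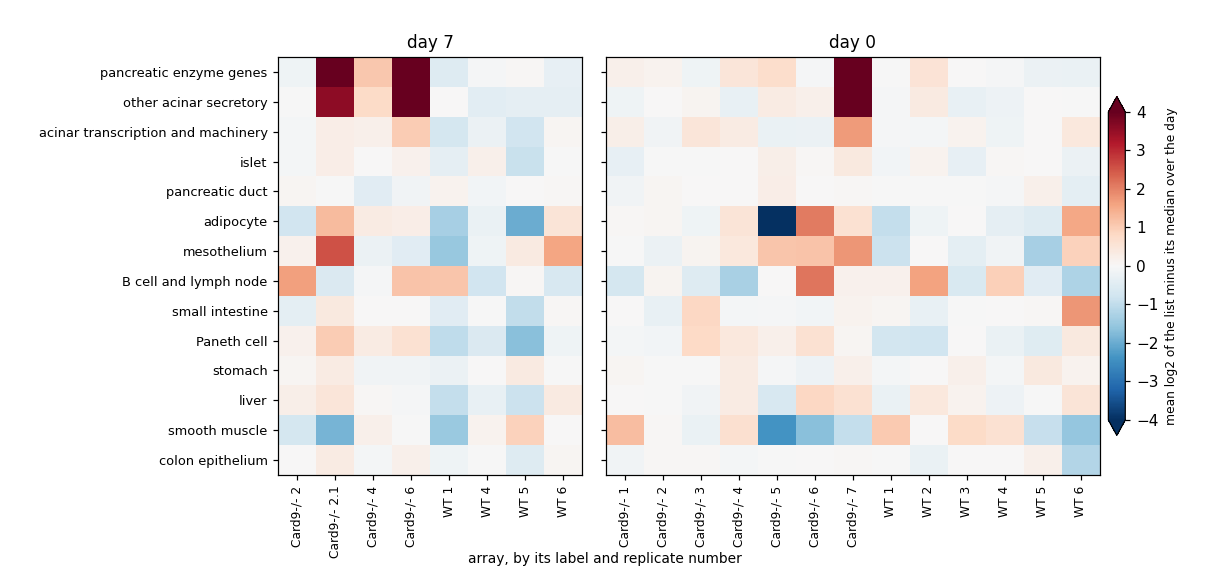
Mean log2 signal of each gene list on each array, less the median of that mean over the arrays of the day, at day 7 (left) and day 0 (right), with red for higher and blue for lower and colors cut at 4 log2 units. The enzyme genes and the other acinar secretory genes are dark red for the label GF Card9-/- on replicates 2.1 and 6 at day 7 and on replicate 7 at day 0.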

How the data were processed

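The authors scanned each array and quantified spots with Agilent Feature Extraction 10.7.3.1 (submitters' processing notes). The deposited intensity is a background-subtracted linear signal, not normalized between arrays, and the deposited p-value of a spot tests it against its background. The authors also deposited log2 values made with agilp and quantile normalization; in rank order each column correlated best with its own array (8 of 8 and 13 of 13).

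Here log2 of the processed signal was quantile normalized within each day, without control and outlier spots and with the mean taken over replicate spots. Only probes with a p-value under 0.05 on at least 60% of the arrays of either label were tested (44643 of 55681 probes at day 7, 47410 of 56605 at day 0). "Well above background" is the scanner flag on at least 50% of a probe's spots. Labels were compared within a day by limma 3.58.1 (lmFit, eBayes, Benjamini-Hochberg over all tested probes; R 4.3.3), which was tested on simulated data. Probes were named through their RefSeq record, otherwise by the file. Floors used in "at least" folds are the dimmest probe well above background on each array.

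The 10 genes and all gene lists were chosen with earlier results of these data known. Named genes are Card9, the 10 genes, the 5 of widest range in each acinar list, Ins1 and Ins2 and islet genes past 8-fold, the gene of widest range of each other list and the 5 nearest profiles, except that some genes the rule names are not reported here. Other genes named were chosen after their values were seen. Nothing says that samples sharing a label are separate litters or cages, so p-values measure only the spread between these samples. Precision is limited by the number of arrays.

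Alternatives were the 75th percentile scaling, normexp with offset 50, the authors' table, other filters and floors, the mean of a gene's probes, slide, scan session and replicate number in the fit, and arrays left out.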

Additional observations from a re-analysis of the deposited data

Results flagged for a closer look

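For each gene and each list the spread within a label was examined by the gap between the most extreme array and its neighbor, as a share of the whole range (0.829 for 4, 0.625 for 6 and 0.568 for 7 arrays are the critical values). Of 96 such groups 23 passed, 19 at day 0, and chance gives about 1 in 20. The 10 genes were chosen because they stood out in single samples, so their gaps restate that choice, and the count supports nothing.

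As a description, 12 lie in the array labelled GF Card9-/- replicate 7 at day 0, as the highest of its label. The gap was 0.888 of the range for Prss2, 0.96 for Ctrb1, 0.922 for Cela2a, 0.86 for Cela3b and 0.568 for Cela1. It was 0.729 for Cpa1, 0.756 for Cpb1, 0.988 for Pnlip, 0.847 for Pnliprp1 and 0.849 for Clps. The mean of the other acinar secretory genes gave 0.923 and that of the acinar transcription genes 0.619.

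The array labelled GF WT replicate 6 at day 0 was lowest of its label for Cela1 (0.733), Cela2a (0.65) and the colon epithelium list (0.65), and highest for Pnlip (0.704) and the small intestine list (0.822). The array labelled GF Card9-/- replicate 5 was lowest for the adipocyte list (0.632) and replicate 3 highest for the small intestine list (0.603). At day 7 the array labelled GF WT replicate 1 was highest of its label for Card9 (0.995) and for the other acinar secretory genes (0.848), replicate 5 of that label was highest for Pnliprp1 (0.837), and the array labelled GF Card9-/- replicate 2.1 was highest for Card9 (0.855). Pnlip on the day 0 arrays labelled GF WT and Pnliprp1 on the day 7 arrays of that label were not well above background on any array, so the order of their readings has no meaning. The cause of these gaps was not tested.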

How the results depend on the processing

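At day 7 the median difference of the 10 genes, 4.84, stayed above 0 under all 21 alternatives (0.30 to 7.12). It was 0.65 without the arrays labelled GF Card9-/- replicates 2.1 and 6, 0.30 within the slide of replicate 2, and 2.65 to 6.54 with 1 array left out. For the other acinar genes, 2.97, the same values were 0.37, 0.13 and 1.22 to 3.82. At day 0 the median of 1.61 was 11.4 within the slide of replicate 7 and 0.27 to 1.94 with 1 array left out, and the other acinar genes, 1.17, gave 8.10 and 0.06 to 1.47. Within the slide of the arrays labelled GF Card9-/- replicates 2 and 3 the sign turned, at -0.13 and -0.17, while 30 of 31 alternatives kept it for either. None of the 10 genes was called under any of the 19 and 27 settings with a test.

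Probes called at day 7 numbered 0, but 2 without both replicates 2.1 and 6, and 0 to 1 with 1 array left out; the 1 was Card9, without the array labelled GF WT replicate 1 (limma adjusted p = 0.00129). At day 0 there were 12: 27 with normexp, 22 with the authors' table and with the well above background filter, 5 with the mean over a gene's probes, 1 and 3 within scan sessions 1 and 2 (chosen after seeing the data), and 8 to 16 with 1 array left out.

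The labels share replicate numbers. Same-numbered arrays correlated by 0.111 and 0.0292 at day 7, where 2 of 4 correlated best with their own number, and by -0.0221 to 0.375 at day 0, with 3 of 6 pairs over 0.1 and 4 of 12 arrays best with their own. Not every pair passed 0.1 and no label names a shared litter or batch, so the numbers were not used as pairs. With the replicate block the median was 6.45 at day 7 and 0.27 at day 0, where 7 probes were called. Arrays alone with their number drop out of that difference: replicate 7 at day 0, and at day 7 replicates 2 and 2.1 labelled GF Card9-/- and 1 and 5 labelled GF WT, which leaves replicates 4 and 6. The number of arrays and the dim signal of most of the genes in most arrays limit these comparisons.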
